A study of Mus musculus with 24 samples.

Results

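The genes described are those of the mouse collagen and laminin chains, chosen by their symbols alone: every entry named Col, a number, a and a number, or Lam, a letter and a number. They were 55 genes, 44 collagen and 11 laminin chains, of 38924 entries in each of the 4 deposited tables. RNA had been sequenced in neurospheres, spheres that neural progenitors form in suspension, here started from the cortex or hypothalamus of mouse embryos of day 14.5 and used at passage 3. The 8 groups, with 3 biological replicates each, were female cortex, male cortex, female hypothalamus and male hypothalamus cultures given 100 nM dexamethasone, a synthetic glucocorticoid, for 4 hours, and the same 4 kinds of culture given ethanol, the vehicle of the drug, for the same time. The labels used here give neither the strain nor whether a replicate was 1 embryo, a litter or a pool, so a p-value measures only how these cultures spread, which may in part be technical.

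Collagens are triple helices of 3 chains, which may be alike or come from different genes. Fibrillar collagens form fibrils, collagen IV forms the network of basement membranes, and the FACIT collagens sit on the surface of fibrils. Laminins are cross-shaped trimers of 1 alpha, 1 beta and 1 gamma chain that polymerise in basement membranes and bind integrins and dystroglycan. In the embryonic brain, laminins and collagen IV line the pial and vascular basement membranes, and neural progenitors make laminin chains themselves and bind them through integrins.

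Levels were compared with these limits in view. The libraries held 16.39 to 20.94 M reads in genes in cortex and 16.04 to 25.49 M in hypothalamus, of which the 55 genes took 0.0445% to 0.0883% in hypothalamus and 0.0718% to 0.101% in cortex. Between 21.3% and 40.0% of reads in hypothalamus libraries, and between 1.09% and 2.67% in cortex libraries, came from mt-Rnr2, a mitochondrial ribosomal RNA. All 10 neural stem cell markers examined, such as Nes and Sox2, were measured in every group. Fkbp5, a glucocorticoid target, rose in all 4 kinds of culture, by 2.36 to 3.4 on the log2 scale. Replicate 1 of female cortex stood apart from replicates 2 and 3: Gfap, an astrocyte marker, had 6.64, 449 and 207 RPM with dexamethasone and 3.24, 307 and 137 RPM with vehicle in replicates 1, 2 and 3, all on the common scale described next. In male hypothalamus, both libraries of replicate 2 held Xist, the RNA of the inactive X chromosome, at 38.1 RPM with dexamethasone and 32.3 RPM with vehicle, where the other 10 male libraries had at most 0.632 RPM. The RPM (reads per M reads) of each table are the authors' deposited levels, and a common scale over the 24 libraries was used wherever regions are compared.

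On the common scale and per kb of exon, RNA of the laminin gamma 1 chain led in the vehicle cultures of both regions. Lamc1, the gamma chain of most laminins, was highest, with a median of 23.7 RPM per kb in hypothalamus (19.5 to 30.0 over 6 libraries) and 14.2 RPM per kb in cortex (11.1 to 17.5). The next levels in hypothalamus were those of Col4a5 at 15.6 (7.10 to 18.8), Col5a2 at 9.73 (8.14 to 15.3), Lamb2 at 8.65 (8.42 to 9.33) and Lama5 at 8.13 RPM per kb (6.21 to 11.8), and only Lamc1 did not overlap the gene below it. The next levels in cortex were those of Lama5 at 12.4 (7.92 to 18.4), Col9a3 at 8.48 (7.64 to 13.4), Lamb2 at 8.04 (6.99 to 11) and Col4a5 at 4.92 RPM per kb (4.46 to 7.88), and each overlapped its neighbour. The 10 highest chains made 84.1% of the summed medians of all 55 in hypothalamus and 82.9% in cortex. Of the laminins, those of the trimer with alpha 5, beta 1 or beta 2, and gamma 1 were the abundant ones, while Lama3 and Lamb3 had at most 0.502 and 0.675 RPM in any library.

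**Figure D1:**
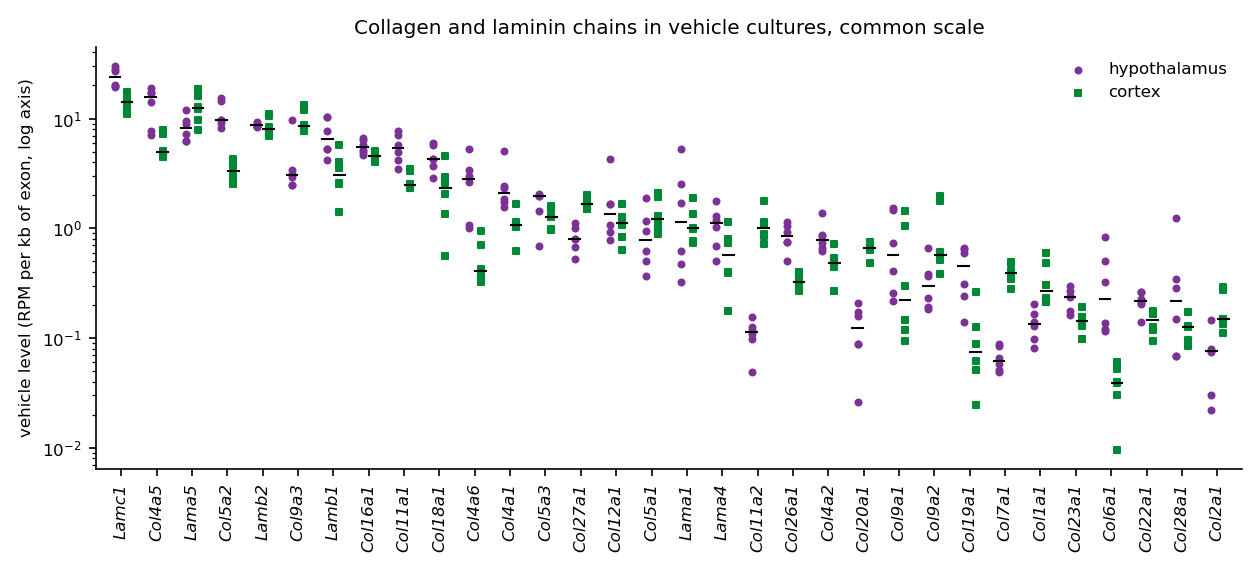
Vehicle levels of the 32 chains that entered a test of dexamethasone or region and had a median of at least 0.1 RPM per kb in either region, on the common scale and a log axis, ordered by the higher of the 2 medians. Each dot is 1 library (6 per region, both sexes), hypothalamus left and cortex right of each gene, and the bar is the median. Lamc1 leads in both regions, and Col11a2 and Col7a1 separate the regions without overlap.

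Of the major fibrillar chains of connective tissue, Col1a2 and Col3a1 were close to absent, with at most 0.225 and 0.379 RPM in any library. Col1a1, which with Col1a2 makes collagen I, was low but measured. On the common scale its vehicle libraries had 0.0818 to 0.206 RPM per kb in hypothalamus and 0.214 to 0.589 RPM per kb in cortex. Of the fibroblast and meningeal markers, Lum, Dcn and Dpt had group means of at most 0.0184 RPM, while the list of 11 summed to 31.02 to 92.6 RPM in female and 40.0 to 52.5 RPM in male hypothalamus vehicle cultures, most of it Prrx1. Of the endothelial markers, Cdh5 and Cldn5 had group means of at most 0.0357 and 0.0436 RPM, while the list of 10 summed to 9.79 to 30.4 RPM and 15.7 to 33.8 RPM in the same cultures, most of it Flt1. Of the collagen IV chains, Col4a3 and Col4a4, known from the kidney filter, had at most 1.00 and 0.214 RPM. The 22 chains that reached 1 RPM in too few libraries to be tested in any table also included all of Col6a2 to Col6a6, and they held from 6 reads (Col6a6) to 293 reads (Col6a3) over the 24 libraries.

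Which chains responded to dexamethasone was asked within each table, for chains that reached 1 RPM in 3 or more of its 6 libraries. This left 30 chains in female cortex, 29 in male cortex, 26 in female hypothalamus and 26 in male hypothalamus, with 22 tested in all 4. The test was limma on log2(RPM + 1), a scale that understates the change of low genes, with Benjamini-Hochberg adjustment over all genes of the table and a call at an adjusted p under 0.05. In bulk RNA, fewer cells of a type and less RNA per cell cannot be told apart.

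In male cortex, Col27a1, Col11a2 and Col7a1 had the largest falls with dexamethasone and Col5a3 the largest rise. Of 29 chains tested, 6 rose and 11 fell, which is 58.6% of them, beside 47.6% of all 13205 genes tested (26.7% higher and 20.9% lower). Because nearly as large a share of all genes passed, the number of chains called is not a result about the chains. Their median log2 change was 0.01, beside 0.04 for all genes. The groups did not overlap for 6 higher and 10 lower chains, where 56.9% of all genes had groups that did not overlap.

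Of the 8 fibrillar chains tested 4 fell and 2 rose. Col27a1, a minor fibrillar collagen of cartilage and developing tissues, had 10.4, 7.75 and 8.08 RPM with dexamethasone in male cortex, against 25.8, 23.9 and 29.0 RPM with vehicle. Every treated library was below every control, and the log2 difference was -1.49 ± 0.12 (SE, limma, adjusted p = 6.9e-06). Col11a2, the alpha 2 chain of collagen XI, had 2.14, 1.88 and 2.1 RPM with dexamethasone, against 7.29, 6.09 and 7.51 RPM with vehicle (-1.39 ± 0.12, adjusted p = 9.99e-06). These groups were also apart. Col2a1, the cartilage collagen II, had 0.375, 0.700 and 0.409 RPM with dexamethasone, against 1.26, 1.52 and 1.69 RPM with vehicle (-0.74 ± 0.15, adjusted p = 0.00219). Col1a1 had 0.964, 0.861 and 0.921 RPM with dexamethasone, against 2.47, 1.75 and 1.85 RPM with vehicle (-0.65 ± 0.14, adjusted p = 0.00307). Both were low genes whose groups did not overlap. Both reached 1 RPM in the vehicle libraries alone, and so entered the test through the group where they were high.

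Of the 9 FACIT chains tested 4 fell and 0 rose, with a median of 0.01 beside 0.04 for all genes, and Col7a1 fell as well. Col7a1, the collagen of anchoring fibrils, had 1.23, 2.31 and 1.89 RPM with dexamethasone in male cortex, against 5.21, 4.68 and 6.19 RPM with vehicle (-1.19 ± 0.16, adjusted p = 0.000243). Col20a1, a FACIT-like collagen, had 1.66, 1.72 and 2.15 RPM with dexamethasone, against 3.07, 4.12 and 3.97 RPM with vehicle (-0.73 ± 0.13, adjusted p = 0.00157). For both, all treated libraries lay below all controls. Col12a1, a FACIT of dense connective tissue, had 16, 12.3 and 16.6 RPM with dexamethasone, against 22.0, 20.2 and 23.8 RPM with vehicle (-0.53 ± 0.12, adjusted p = 0.00377). Col16a1, another FACIT, had 27.0, 27.3 and 27.5 RPM with dexamethasone, against 37.3, 33.0 and 37.4 RPM with vehicle (-0.38 ± 0.07, adjusted p = 0.00149). The treated values of Col16a1 were nearly equal, and both groups were apart. Col9a3, a chain of collagen IX, had 30.5, 35.0 and 34.1 RPM with dexamethasone, against 39.6, 36.9 and 40.8 RPM with vehicle (-0.23 ± 0.07, adjusted p = 0.0248), and it lost its call without dexamethasone replicate 1, vehicle replicate 1 or vehicle replicate 3 (adjusted p up to 0.0909).

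Lama5 and Col18a1, chains of basement membranes, fell as well. Lama5, the laminin alpha 5 chain, had 125, 121 and 138 RPM with dexamethasone in male cortex, against 178, 170 and 225 RPM with vehicle, with no overlap (-0.56 ± 0.10, adjusted p = 0.00103). Col18a1, whose C-terminal fragment is endostatin, had 11.2, 12.9 and 21 RPM with dexamethasone, against 17.7, 25.4 and 39.2 RPM with vehicle (-0.80 ± 0.27, adjusted p = 0.0323). The groups of Col18a1 overlapped, each replicate was lower than its same-numbered control, and the call was lost in 4 of 6 omissions of 1 library (without dexamethasone replicate 1 or 2, or vehicle replicate 2 or 3), with an adjusted p of up to 0.110, and also without the filter on low values.

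The rises were led by Col5a3, the alpha 3 chain of collagen V. It had 28.4, 25.1 and 22.7 RPM with dexamethasone in male cortex, against 13.4, 10.6 and 10.6 RPM with vehicle, with no overlap (1.08 ± 0.11, adjusted p = 4.75e-05). Col5a2, the alpha 2 chain of the same collagen, had 43.2, 42.5 and 37.6 RPM with dexamethasone, against 35.1, 30.0 and 30.7 RPM with vehicle (0.35 ± 0.08, adjusted p = 0.00544). Of the collagen V chains 2 were higher, while Col5a1 had a log2 difference of -0.50 ± 0.22 (adjusted p = 0.0842).

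Of the 4 collagen IV chains tested 3 rose, and so did Lamc1. Col4a5 had 53.6, 52.6 and 52.9 RPM with dexamethasone in male cortex, against 41.9, 39.6 and 36.7 RPM with vehicle (0.42 ± 0.06, adjusted p = 0.000477). Col4a6, its partner chain, had 5.30, 5.49 and 6.80 RPM with dexamethasone, against 4.22, 3.27 and 3.70 RPM with vehicle (0.54 ± 0.13, adjusted p = 0.00607). Neither gene's groups overlapped. Col4a1, a chain of the common collagen IV trimer, had 12.6, 11.5 and 14.0 RPM with dexamethasone, against 9.54, 10.4 and 9.62 RPM with vehicle (0.33 ± 0.10, adjusted p = 0.0167, and 0.0757 without dexamethasone replicate 3). Lamc1 had 184, 163 and 181 RPM with dexamethasone, against 150, 141 and 152 RPM with vehicle (0.25 ± 0.06, adjusted p = 0.00696). The treated libraries of both were above all controls. The remaining collagen IV chain, Col4a2, had 0.26 ± 0.12 (adjusted p = 0.107).

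These collagen IV genes lie head to head. On GRCm38, Col4a2 starts at 11312805 on the plus strand of chromosome 8 and Col4a1 at 11312826 on the minus strand, so that their first exons overlap by 22 bases. Col4a5 starts at 141475385 on the plus strand of chromosome X and Col4a6 at 141474076 on the minus strand, 1309 bases apart. Reads in the shared 22 bases could not be assigned with certainty, as no source used here gives the strand setting of the counting. The same holds for 6.07% of the exon length of Col9a3, which Tcfl5 overlaps on the other strand.

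**Figure D2:**
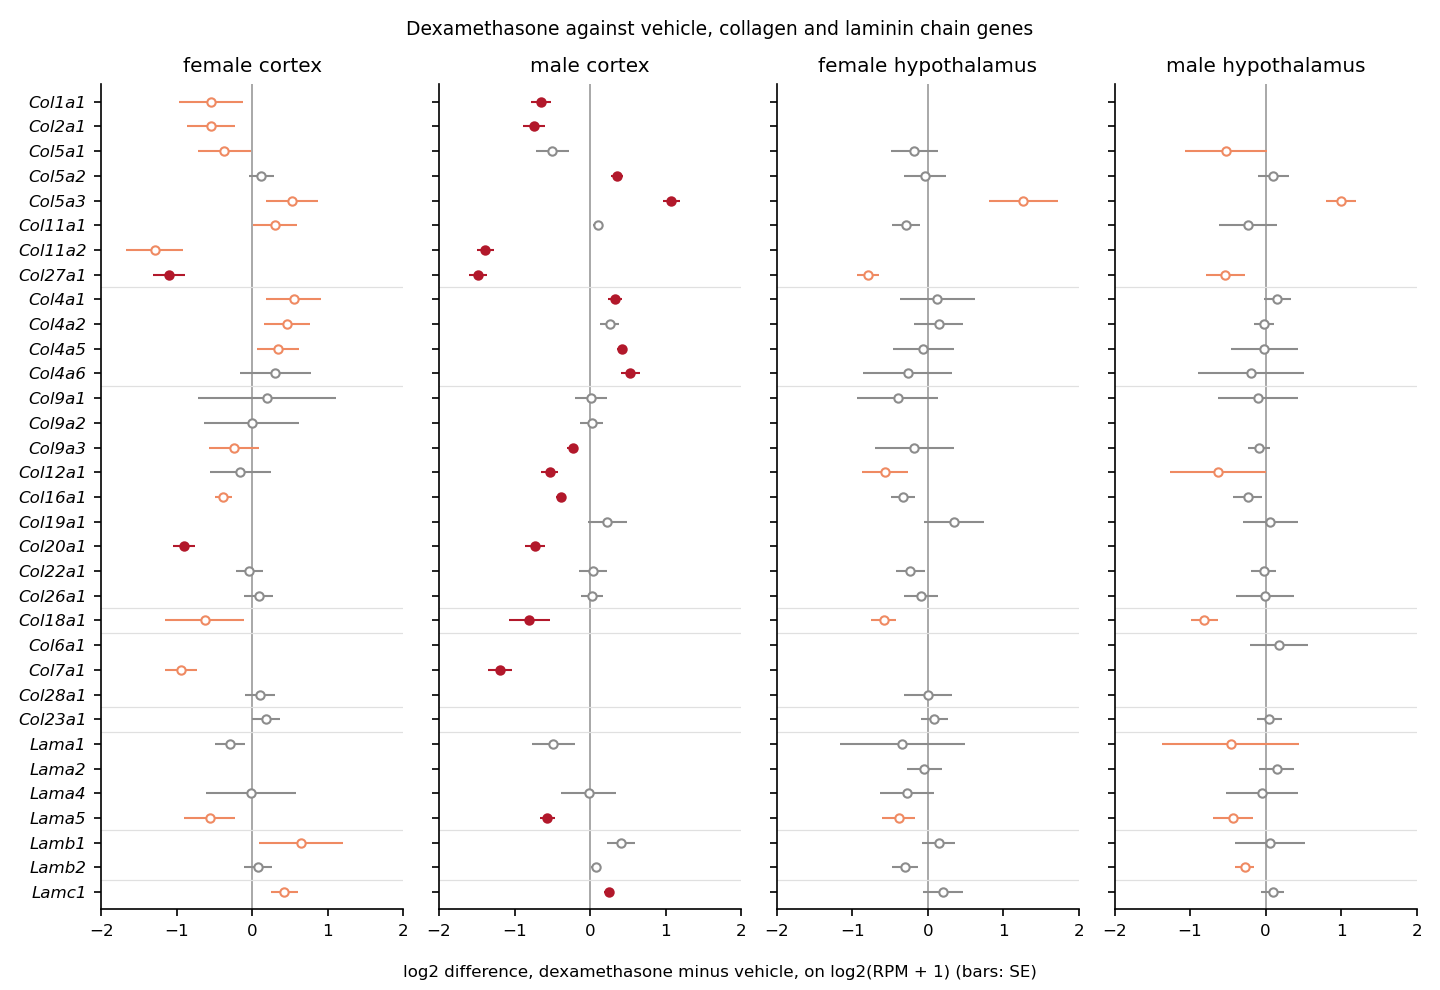
The log2 difference of dexamethasone minus vehicle (x axis, on log2(RPM + 1), bars are SE without a block) for the chains tested in each of the 4 kinds of culture, with thin lines between structural classes. Filled dots passed limma at an adjusted p under 0.05, open orange dots passed with the replicate number as a block (shown for all but male cortex), and open grey dots did not pass. Col27a1, Col18a1 and Lama5 lie left of 0 and Col5a3 right of 0 in all 4 panels.

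In female cortex, 2 of 30 chains passed, both lower, which is 6.67% of them, beside 4.42% of all 13314 genes tested (1.40% higher and 3.02% lower). Col27a1 had 9.21, 14.8 and 14.8 RPM with dexamethasone, against 32, 28.1 and 25 RPM with vehicle (-1.10 ± 0.21, adjusted p = 0.0469). Col20a1 had 1.80, 1.88 and 2.36 RPM with dexamethasone, against 4.57, 4.46 and 4.84 RPM with vehicle (-0.91 ± 0.14, adjusted p = 0.0325). The groups of both were well apart. Both calls were lost when any 1 of the 6 libraries was left out (adjusted p up to 0.165 for Col27a1 and 0.132 for Col20a1), and neither was made without the filter on low values. Leaving out both libraries of replicate 1 gave 5 calls, those of Lamc1 (higher) and of Col11a2, Col20a1, Col27a1 and Col7a1 (lower), beside 12.3% of all genes. Without replicate 2 and without replicate 3 no chain was called, and 2 and 0 genes in all.

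Same-numbered libraries of female cortex moved together, with correlations of 0.87, 0.82 and 0.49 between their deviations from the group means in replicates 1, 2 and 3. Dexamethasone replicates 2 and 3 also had correlations of up to 0.46 and 0.49 with another number, so replicate 3 was hardly closer to its own. With the replicate number as a block 7 chains rose and 11 fell, 60.0% of 30, beside 38.1% of all genes (19.9% higher and 18.2% lower). The chains that rose with the block were Lamb1, Col4a1, Col5a3, Col4a2, Lamc1, Col4a5 and Col11a1, and those that fell were Col11a2, Col27a1, Col7a1, Col20a1, Col18a1, Lama5, Col1a1, Col2a1, Col16a1, Col5a1 and Col9a3. Lamb1, the laminin beta 1 chain, had 95.9, 39.5 and 41.5 RPM with dexamethasone, against 69.8, 17.9 and 31.5 RPM with vehicle. The groups overlapped, every treated library was above its own control, and the difference of 0.65 had an adjusted p of 0.592 without and 0.0063 with the block. Lama5 had 144, 83.6 and 105 RPM with dexamethasone, against 255, 115 and 141 RPM with vehicle (-0.57, adjusted p = 0.408 without and 0.00172 with the block). Col11a2 had 1.94, 5.96 and 5.20 RPM with dexamethasone, against 9.24, 15.5 and 9.97 RPM with vehicle (-1.29, adjusted p = 0.115 without and 0.000994 with the block). Col7a1 had 2.46, 1.88 and 1.59 RPM with dexamethasone, against 6.07, 4.51 and 3.66 RPM with vehicle (-0.94, adjusted p = 0.0652 without and 0.000927 with the block). The groups of Col7a1 and Col11a2 did not overlap.

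In hypothalamus no chain passed without a block: 0 of 26 in female cultures, beside 0.841% of 12491 genes, and 0 of 26 in male cultures, beside 0.226% of 12403 genes. At an unadjusted p under 0.05 limma gave 3 and 2 chains, 11.5% and 7.69% of them, beside 8.91% and 7.74% of all genes, and edgeR's quasi-likelihood test on the recovered reads called 0 in both, beside 0.737% and 0.169% of all genes. Same-numbered libraries were paired here too (correlations 0.61 to 0.75 in female and 0.66 to 0.77 in male cultures). With the replicate number as a block, 1 chain rose and 4 fell in female hypothalamus, 19.2% of 26 beside 7.14% of all genes (4.24% higher and 2.91% lower), and 1 rose and 7 fell in male hypothalamus, 30.8% of 26 beside 13.1% (5.09% higher and 8.01% lower). Leaving out replicate 2 of male hypothalamus, whose libraries held Xist, left the count without a block at 0.

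The chain that rose in both was Col5a3. It had 27.3, 10.9 and 26.1 RPM with dexamethasone in female hypothalamus, against 11, 3.70 and 10.7 RPM with vehicle (1.27 ± 0.09 with the block, adjusted p = 0.000152, and 0.466 without). In male hypothalamus it had 25.7, 20.8 and 16.5 RPM with dexamethasone, against 11.3, 10.9 and 7.79 RPM with vehicle (0.99 ± 0.09 with the block, adjusted p = 8.18e-05, and 0.161 without). Every treated library was above its own control. In female cortex Col5a3 had 24.1, 9.66 and 12.2 RPM with dexamethasone, against 12.3, 8.33 and 8.51 RPM with vehicle (0.53, adjusted p = 0.455 without and 0.019 with the block).

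The chains that fell with the block in both sexes of hypothalamus were Col27a1, Col18a1, Col12a1 and Lama5. Col18a1 had 11.3, 13.9 and 13.7 RPM with dexamethasone in female hypothalamus, against 20.7, 16 and 23.7 RPM with vehicle (-0.58, adjusted p = 0.271 without and 0.0331 with the block). In male hypothalamus it had 17.6, 19.1 and 13.7 RPM with dexamethasone, against 34.0, 33.0 and 23.8 RPM with vehicle (-0.81, adjusted p = 0.214 without and 0.000133 with the block). Neither pair of groups overlapped. Col27a1 had 4.19, 4.65 and 5.27 RPM with dexamethasone in female hypothalamus, against 8.19, 8.19 and 10.4 RPM with vehicle (-0.79, adjusted p = 0.0779 without and 0.003 with the block). In male hypothalamus it had 4.36, 4.62 and 6.32 RPM with dexamethasone, against 5.54, 7.22 and 11.4 RPM with vehicle (-0.53, adjusted p = 0.678 without and 0.0157 with the block). The male groups overlapped and the female ones did not. Lama5 had 60.5, 42 and 68.7 RPM with dexamethasone in female hypothalamus, against 81, 56.6 and 85.6 RPM with vehicle, and 49.7, 45.0 and 73.4 RPM with dexamethasone in male hypothalamus, against 57.3, 67.7 and 106 RPM with vehicle. Its differences of -0.38 and -0.44 had adjusted p of 0.0159 and 0.00581 with the block and 0.666 and 0.752 without. Col12a1 changed by -0.57 and -0.63 (adjusted p = 0.0143 and 0.00141 with the block), and Lama1, Col5a1 and Lamb2 passed with the block in male hypothalamus (-0.46, -0.53 and -0.28) and had -0.34, -0.18 and -0.31 in female hypothalamus (adjusted p = 0.239, 0.388 and 0.184). The male minus female differences of these 3 were -0.12, -0.34 and 0.03 with the block, and none passed (adjusted p = 1.00 each).

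Over the 12 same-numbered pairs of the series, dexamethasone was below vehicle in all 12 for 6 of the 22 chains tested in all 4 tables, Col12a1, Col16a1, Col18a1, Col27a1, Lama1 and Lama5, and above in all 12 for 1, Col5a3. All other 15 chains of these had pairs in both directions. How many of all genes had 12 pairs in 1 direction was not counted, so these counts are not a result about the chains. In male cortex the numbers did not pair the samples.

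**Figure D3:**
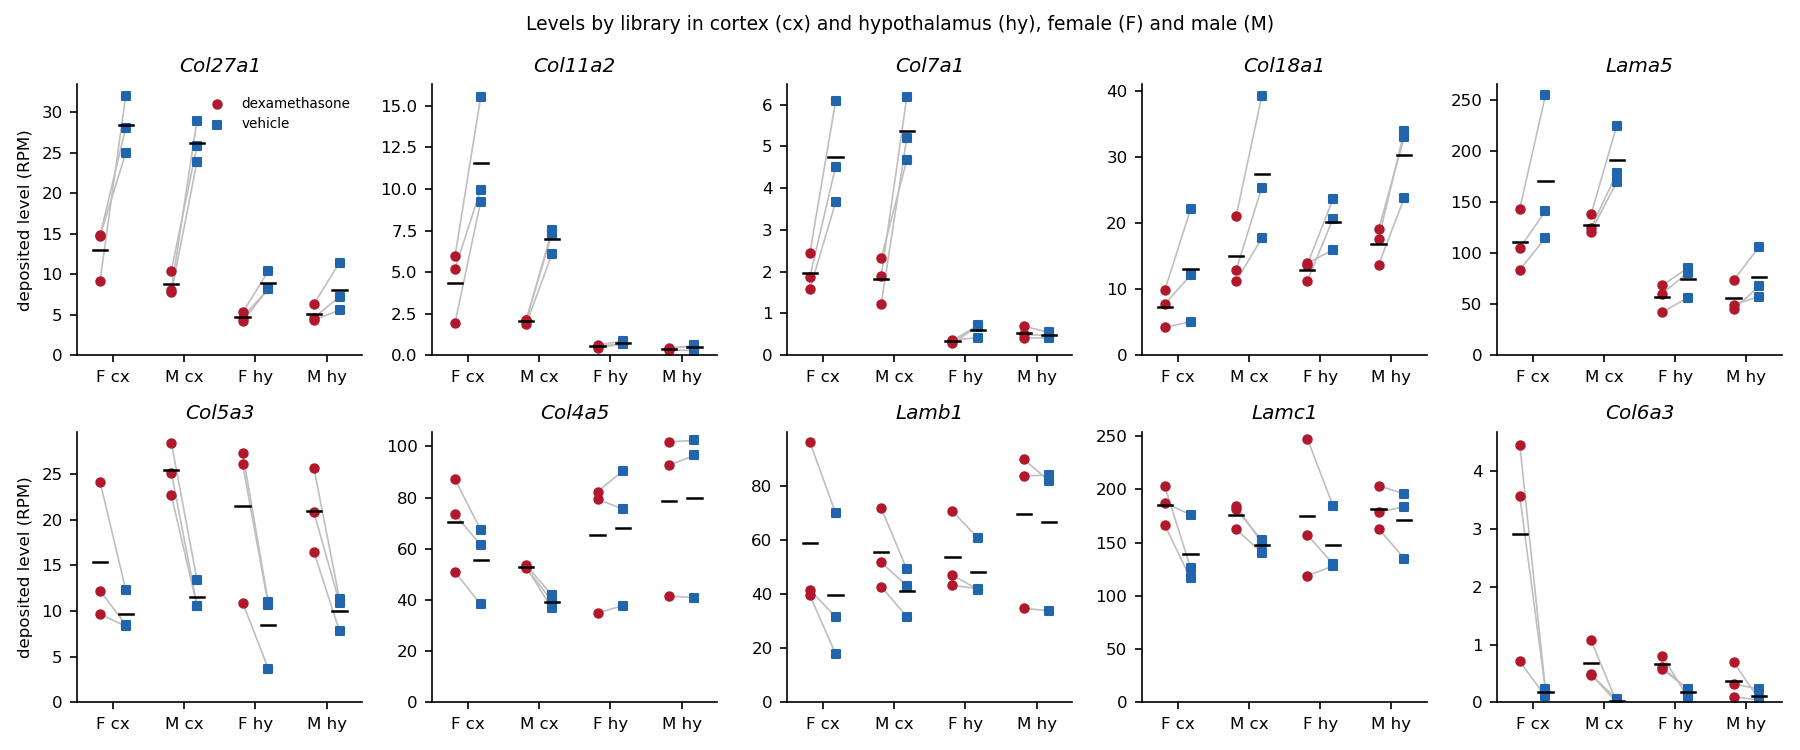
Deposited levels (RPM, y axis from 0) of 10 chains in female (F) and male (M) cortex (cx) and hypothalamus (hy). Red dots are dexamethasone and blue squares vehicle libraries, grey lines join libraries with the same replicate number, and black bars are means of 3. The lines of Col27a1, Col18a1 and Lama5 run upward to vehicle and those of Col5a3 downward in every kind of culture, and all lines of Lamb1 and Lamc1 run downward in cortex.

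Upstream sequence is shown for 3 chains whose direction was the same in all 12 pairs, the one that was higher (Col5a3) and 2 that were lower (Col27a1 and Lama5), with Col6a3 beside them. Each is the 250 bases before the RefSeq start (GRCm38.p6), 5′ to 3′ on the gene's strand, with matches to any of 5 motifs on either strand in capitals. The motifs were the GC box GGGCGG, the promoter box with the letters CCAAT, the TATA-type element spelled TATAAA, the AP-1 element spelled TGANTCA, and the glucocorticoid receptor half-site spelled AGAACA. Col5a3 is read from chr9:20815068-20815317 (minus strand), Col27a1 from chr4:63215162-63215411 (plus strand), Lama5 from chr2:180225860-180226109 (minus strand) and Col6a3 from chr1:90843972-90844221 (minus strand).
Col5a3: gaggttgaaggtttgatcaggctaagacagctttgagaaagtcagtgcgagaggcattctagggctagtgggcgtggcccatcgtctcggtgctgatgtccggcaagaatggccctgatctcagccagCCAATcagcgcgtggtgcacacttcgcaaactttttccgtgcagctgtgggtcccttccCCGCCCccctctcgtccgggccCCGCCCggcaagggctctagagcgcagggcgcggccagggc
Col27a1: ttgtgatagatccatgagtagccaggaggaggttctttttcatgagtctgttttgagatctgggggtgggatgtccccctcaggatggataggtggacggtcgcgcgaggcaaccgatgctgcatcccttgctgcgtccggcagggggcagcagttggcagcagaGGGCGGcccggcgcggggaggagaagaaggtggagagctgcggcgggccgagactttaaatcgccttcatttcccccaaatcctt
Lama5: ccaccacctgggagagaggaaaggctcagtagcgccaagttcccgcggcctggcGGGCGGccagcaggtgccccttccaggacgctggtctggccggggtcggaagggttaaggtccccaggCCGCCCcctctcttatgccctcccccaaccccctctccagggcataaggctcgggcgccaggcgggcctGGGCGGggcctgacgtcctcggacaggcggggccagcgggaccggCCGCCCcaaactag
Col6a3: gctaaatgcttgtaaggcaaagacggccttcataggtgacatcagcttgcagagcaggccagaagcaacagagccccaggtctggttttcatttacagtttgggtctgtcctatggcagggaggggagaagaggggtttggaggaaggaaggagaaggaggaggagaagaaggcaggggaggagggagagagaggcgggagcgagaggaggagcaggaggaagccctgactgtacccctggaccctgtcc

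The capitals are 2 GC boxes and 1 CCAAT box in Col5a3, 1 GC box in Col27a1 and 4 GC boxes in Lama5, and Col6a3 holds none of the 5 motifs. GC content was 62.8%, 59.6%, 72.4% and 57.2% for Col5a3, Col27a1, Lama5 and Col6a3. None of these 4 windows holds the half-site, which says only that these letters are not in this window. Sequences were matched for 40 of the 55 genes, in 44 windows. A GC box was in 24 of the 44 windows and in 32.7% of all 32851 promoter windows of this length, a CCAAT box in 14 and in 33.8%, the half-site in 3 (Col20a1, Col9a1 and Lama2) and in 16.1%, a TATA element in 5 and in 12.4%, and an AP-1 element in 1 and in 6.75%.

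Whether the sexes differed in response was tested as an interaction term. No chain passed in cortex (0 of 33) or hypothalamus (0 of 28), where 0% of all genes passed in either, and limma gave 0 chains at an unadjusted p under 0.05 (beside 1.24% of all genes in cortex and 0.257% in hypothalamus), edgeR 0 calls and the fit with the culture as a block 0 calls. The male minus female differences ran from -0.85 to 0.51 in cortex and from -0.34 to 0.30 in hypothalamus on the log2 scale, so differences of this size were not resolved at n = 3. The ends of the cortex range were Col6a3 (-0.85 ± 0.48, SE) and Col5a3 (0.51 ± 0.41). Col6a3 was a low gene that had reached the low-value limit through dexamethasone libraries alone, and log2(RPM + 1) understates the change of such genes. The depth-adjusted ratio of its reads, dexamethasone over vehicle, went the other way, with 37.7 in male and 15.4 in female cortex and overlapping intervals. The sign of its sex difference is therefore not settled.

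Whether the regions differed in response was tested in the same way. In males, 2 of 32 chains passed, or 6.25%, beside 7.74% of all 13448 genes (4.72% higher and 3.02% lower), and both had reached the low-value limit through cortex alone. Col11a2 had 0.442, 0.320 and 0.398 RPM with dexamethasone in male hypothalamus, against 0.543, 0.276 and 0.587 RPM with vehicle, where male cortex fell by 1.39 on the log2 scale. The difference of the 2 responses was 1.24 ± 0.18 (hypothalamus minus cortex, limma, adjusted p = 0.00182). Col7a1 had 0.695, 0.411 and 0.498 RPM with dexamethasone in male hypothalamus, against 0.543, 0.414 and 0.470 RPM with vehicle, and its difference was 1.195 ± 0.21 (adjusted p = 0.0066). Both genes were under 1 RPM in every male hypothalamus library, where log2(RPM + 1) leaves little room for a fall. With a pseudocount of 0.25 the differences were 1.48 (adjusted p = 0.013) and 1.57 (adjusted p = 0.015), and in edgeR's quasi-likelihood test on the reads, which adds no such constant before testing, they were 1.51 (adjusted p = 0.0395) and 1.75 (adjusted p = 0.0291). Without male hypothalamus vehicle replicate 3 the count was 4, with Col20a1 and Col27a1 added, beside 7.13% of all genes.

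In females 0 of 33 chains passed without a block, beside 0.684% of 13589 genes (0.581% higher and 0.103% lower). Of these chains 3 had an unadjusted p under 0.05, 9.09% of them, beside 12.2% of all genes, and edgeR called 0, beside 0.655% of all genes. Without female cortex dexamethasone replicate 1 the count was 1, Col6a3, beside 0.743% of all genes. Col6a3 had reached the low-value limit in this fit through dexamethasone libraries alone. Both female regions were paired by number, though replicate 3 of cortex hardly so. With the culture as a block 7 of 33 passed, or 21.2%, beside 15.5% of all genes. The response of hypothalamus was above that of cortex for Col11a2 (1.03, adjusted p = 0.0165), Col5a3 (0.73, adjusted p = 0.0215) and Col20a1 (0.66, adjusted p = 0.0281). It was below for Col11a1 (-0.64, adjusted p = 0.0101), Col4a6 (-0.61, adjusted p = 0.0424), Col12a1 (-0.46, adjusted p = 0.0456) and Col4a5 (-0.44, adjusted p = 0.018). Col11a2 and Col20a1 had reached the low-value limit through cortex alone. By edgeR's quasi-likelihood test on the reads with the same block, which was added after the data were seen, 3 of these passed, Col5a3 (0.76, adjusted p = 0.0217), Col11a1 (-0.61, adjusted p = 0.0108) and Col4a5 (-0.41, adjusted p = 0.0214), and the other 4 did not (adjusted p from 0.0555 for Col4a6 to 0.179 for Col11a2). Col11a1, the other chain of collagen XI, had 43.3, 31.6 and 49.0 RPM with dexamethasone in female hypothalamus, against 49.97, 42.5 and 58.4 RPM with vehicle, and 39.6, 79.6 and 65.2 RPM with dexamethasone in female cortex, against 35.8, 56.4 and 53.7 RPM with vehicle. Every pair was lower with dexamethasone in hypothalamus and higher in cortex.

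Col6a3, the alpha 3 chain of the microfibril collagen VI, was under the low-value limit of each table, and had more reads with dexamethasone in all 4. It had 0.709, 4.45 and 3.56 RPM with dexamethasone in female cortex, against 0.104, 0.215 and 0.225 RPM with vehicle, and all 12 pairs of the series were higher with dexamethasone. Summed over 3 libraries it had 160 reads with dexamethasone and 10 with vehicle in female cortex, 39 and 1 in male cortex, 44 and 12 in female hypothalamus, and 20 and 7 in male hypothalamus. The depth-adjusted ratios were 15.4 (95% exact interval 8.14 to 32.7), 37.7 (6.38 to 1526), 3.85 (2.00 to 8.01) and 3.25 (1.32 to 9.09), intervals that cover counting error only. In the authors' deposited table Col6a3 was among the genes called in female cortex (log2 fold change 3.96, adjusted p = 1.95e-06) and male cortex (4.79, adjusted p = 0.000233), with 1.89 and 1.68 and adjusted p of 0.228 and 1.00 in female and male hypothalamus. At an adjusted p under 0.05, the authors' deposited table called 1 chain higher and 4 lower in female cortex and 2 higher and 5 lower in male cortex, of 55, beside 5.33% and 5.99% of its 38920 entries. The male cortex calls were Col5a3 and Col6a3 (higher) and Col27a1, Col11a2, Col7a1, Col20a1 and Col2a1 (lower). All other chains called by limma in male cortex did not pass there, among them Lama5 (authors' adjusted p = 0.201), Col4a5 (0.325) and Lamc1 (0.687). In hypothalamus the authors' deposited table called 0 chains in females, beside 0.486% of entries, and 1 lower (Col18a1) in males, beside 0.414%.

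Whether vehicle cultures of the 2 regions differ in their chains was tested on the common scale. In males 12 of 29 chains were higher and 8 lower in hypothalamus than in cortex, 69.0% of them, beside 48.3% of all 13049 genes (23.5% higher and 24.9% lower). In females 5 were higher and 5 lower, 34.5% of 29, beside 28.8% of 13129 genes (14.3% and 14.5%). The median difference of the chains was 0.36 in males and 0.29 in females on the log2 scale, beside -0.00 and 0.02 for all genes. Of 28 chains tested in both sexes, 9 were called in both, 5 higher and 4 lower in hypothalamus, and 27 had the same sign, Lamb2 being the exception. The share of all genes called in both sexes, or with the same sign, was not counted, so these counts are not a result about the chains. The female count was 18 without cortex replicate 1, beside 40.4% of all genes, and 6 without cortex replicate 3 or hypothalamus replicate 3, beside 14.1% and 16.3%. The male count was 13 without cortex replicate 3, beside 35.6% of all genes. Region moved together with the share of mt-Rnr2 reads given above, whose part in these differences was not tested.

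The 5 chains called higher in hypothalamus in both sexes were Col4a6, Col5a2, Col26a1, Col11a1 and Lamc1. Col4a6 had 27.3, 8.05 and 20.8 RPM in female hypothalamus, against 2.56, 7.54 and 5.60 RPM in female cortex, and 42.1, 23.9 and 8.53 RPM in male hypothalamus, against 3.42, 2.66 and 3.02 RPM in male cortex (female 1.60 ± 0.49, adjusted p = 0.0494, and male 2.43 ± 0.48, adjusted p = 0.0051). Its groups were apart in both sexes, and its values in hypothalamus spread widely. In females the call was lost in 5 of 6 omissions of 1 library (all but hypothalamus replicate 2), with adjusted p up to 0.150, and also with a pseudocount of 0.25, without the filter, with the replicate block and with the scale computed without 4 rRNA-like genes. Col5a2 had 147, 78.1 and 93.1 RPM in female hypothalamus, against 41.3, 40.3 and 35.2 RPM in female cortex, and 139, 87.6 and 93.5 RPM in male hypothalamus, against 28.4, 24.4 and 25.1 RPM in male cortex (1.37 ± 0.23, adjusted p = 0.00674, and 1.97 ± 0.17, adjusted p = 0.000163). No library of either sex overlapped. Col4a5 had 114, 47.7 and 95.2 RPM in female hypothalamus, against 31.4, 52.9 and 48.5 RPM in female cortex, where the groups overlapped (0.88 ± 0.35, adjusted p = 0.0989), and 126, 118 and 51.9 RPM in male hypothalamus, against 33.9, 32.2 and 30.0 RPM in male cortex (1.49 ± 0.31, adjusted p = 0.00612).

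Col26a1, a short collagen, had 7.63, 6.18 and 9.30 RPM in female hypothalamus, against 2.22, 2.74 and 3.02 RPM in female cortex, and 6.17, 8.62 and 4.12 RPM in male hypothalamus, against 3.24, 2.57 and 2.20 RPM in male cortex (1.24 ± 0.19, adjusted p = 0.00478, and 0.96 ± 0.23, adjusted p = 0.0128). Col11a1 had 63.0, 53.6 and 73.6 RPM in female hypothalamus, against 29.4, 44.2 and 42.4 RPM in female cortex, and 98.5, 89.9 and 44.2 RPM in male hypothalamus, against 31.1, 32.5 and 29.8 RPM in male cortex (0.71 ± 0.19, adjusted p = 0.0336, and 1.21 ± 0.27, adjusted p = 0.00887). Lamc1 was 161 to 233 RPM in female hypothalamus, against 91.8 to 145 RPM in female cortex, and 167 to 248 RPM in male hypothalamus, against 114 to 124 RPM in male cortex (0.74 ± 0.22 and 0.81 ± 0.14). The female call of Lamc1 was lost in 5 of 6 omissions (all but cortex replicate 1) and that of Col11a1 in 3 of 6 (cortex replicate 3, and hypothalamus replicate 1 or 3), with adjusted p up to 0.142 and 0.111. The female call of Lamc1 was also lost without the filter, in edgeR and with the replicate block. In males Col4a1, Col4a2, Lamb1, Lamb2, Col18a1 and Col19a1 were called higher as well, with differences of 0.87, 0.46, 1.18, 0.27, 0.78 and 1.08. The laminin beta 1 chain Lamb1 was 41.7 to 103 RPM in male hypothalamus, against 25.9 to 39.7 RPM in male cortex, and Col4a1 11.6 to 18.2 RPM, against 7.72 to 8.44 RPM. Col18a1 was 30.2 to 42 RPM in male hypothalamus, against 14.3 to 32 RPM in male cortex, and Col19a1 1.68 to 4.51 RPM, against 0.604 to 1.82 RPM, so that both overlapped. Col4a2 was 4.36 to 5.63 RPM in male hypothalamus, against 2.98 to 3.58 RPM in male cortex, and Lamb2 51.2 to 56.7 RPM, against 42.5 to 46.6 RPM, with no overlap in either. Among these male calls those of Lamb1, Col18a1 and Col19a1 were lost in 4 of 6 omissions, Col4a2 in 3 of 6 and Lamb2 in 2 of 6, with adjusted p up to 0.119. The call of Col18a1 was also lost without the filter, in edgeR and with the replicate block, that of Col19a1 with the block and that of Col4a2 without the filter.

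Col11a2, Col7a1, Col20a1 and Col27a1 were lower in hypothalamus in both sexes. Col11a2 had 1.07, 0.816 and 0.864 RPM in female hypothalamus, against 7.59, 12.2 and 7.87 RPM in female cortex, and 0.671, 0.338 and 0.744 RPM in male hypothalamus, against 5.90, 4.95 and 6.13 RPM in male cortex (-2.39 ± 0.20, adjusted p = 0.000658, and -2.08 ± 0.15, adjusted p = 7.51e-05). Col7a1 had 0.898, 0.525 and 0.864 RPM in female hypothalamus, against 4.99, 3.54 and 2.89 RPM in female cortex, and 0.671, 0.507 and 0.595 RPM in male hypothalamus, against 4.21, 3.81 and 5.05 RPM in male cortex (-1.43 ± 0.20, adjusted p = 0.00398, and -1.75 ± 0.13, adjusted p = 9.42e-05). Both genes kept their groups several times apart. Col20a1 had 1.07, 0.816 and 0.458 RPM in female hypothalamus, against 3.75, 3.49 and 3.82 RPM in female cortex, and 0.134, 0.451 and 0.893 RPM in male hypothalamus, against 2.48, 3.35 and 3.24 RPM in male cortex (-1.41 ± 0.17, adjusted p = 0.00228, and -1.46 ± 0.20, adjusted p = 0.00118). Col27a1 was 10.3 to 13.1 RPM in female hypothalamus, against 19.7 to 26.3 RPM in female cortex, and 6.84 to 14.5 RPM in male hypothalamus, against 19.4 to 23.7 RPM in male cortex (-0.95 ± 0.17 and -1.07 ± 0.23). These 4 kept their calls in both sexes in every omission of 1 library, as did Col5a2. The omissions left the set of genes tested unchanged. Col11a2, Col7a1 and Col20a1 had reached the low-value limit through cortex alone, with at most 1.07 RPM in hypothalamus vehicle libraries.

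Col9a3 had 12.1, 37.0 and 9.61 RPM in female hypothalamus, against 29.4, 51.5 and 46.1 RPM in female cortex, where the groups overlapped (-1.28 ± 0.48, adjusted p = 0.0884), and 11.3, 9.58 and 13 RPM in male hypothalamus, against 32, 30.0 and 33.3 RPM in male cortex (-1.42 ± 0.12, adjusted p = 0.000148). Lama5, Col9a2 and Col2a1 were called lower in male hypothalamus (-0.73, -0.63 and -0.50) and Col1a1 in female hypothalamus (-1.02). Lama5 was 70.8 to 135 RPM in male hypothalamus, against 138 to 184 RPM in male cortex, and Col9a2 0.563 to 1.14 RPM, against 1.60 to 1.86 RPM. Col2a1 was 0.282 to 0.738 RPM in male hypothalamus, against 1.02 to 1.38 RPM in male cortex, and Col1a1 0.641 to 0.915 RPM in female hypothalamus, against 1.41 to 3.87 RPM in female cortex. None of these 4 pairs of groups overlapped. Col2a1 and Col1a1 had reached the low-value limit through cortex alone. The calls of Lama5 and Col1a1 were lost in 5 of 6 omissions, that of Col2a1 in 4 of 6 and that of Col9a2 without cortex replicate 1, with adjusted p up to 0.114, and that of Col2a1 also with the replicate block.

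**Figure D4:**
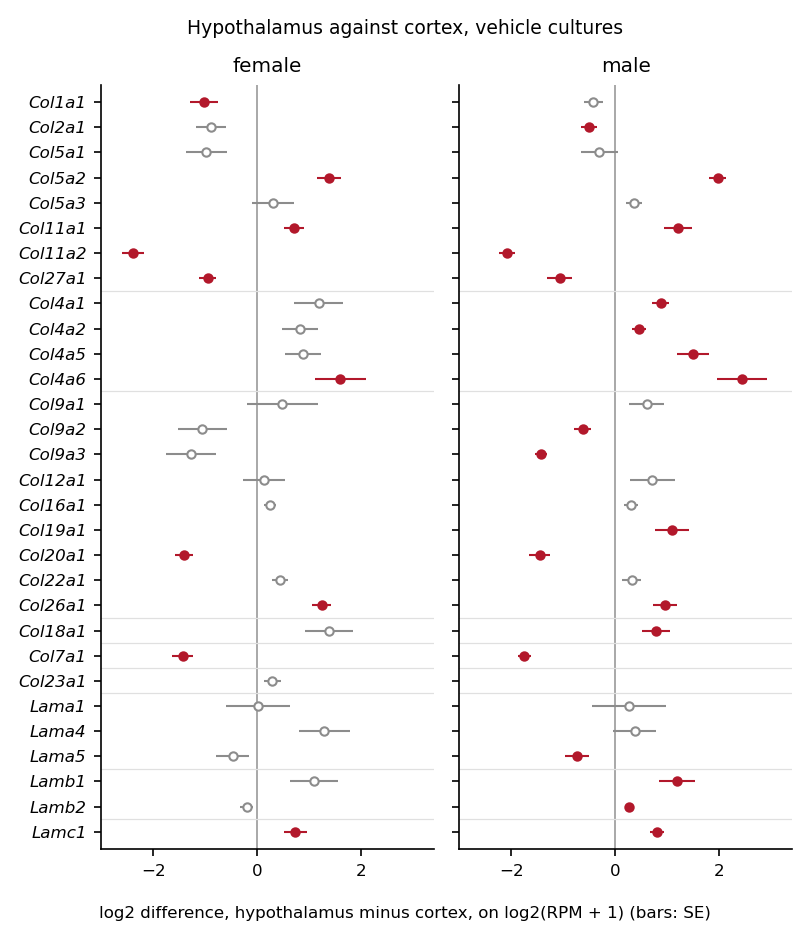
The log2 difference of hypothalamus minus cortex in vehicle cultures (x axis, on log2(RPM + 1) of the common scale, bars are SE) for the chains tested in females and males, with thin lines between structural classes. Filled dots passed limma at an adjusted p under 0.05 and open dots did not. The collagen IV chains lie right of 0 and Col11a2, Col20a1, Col27a1 and Col7a1 left of 0 in both sexes.

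The other genes of the matrix pathway were examined as 4 lists. Of the collagen-processing genes, 0 of 19 passed in female cortex, where 4.42% of all genes passed, and 4 of 18 in male cortex, or 22.2%, where 47.6% of all genes passed. All 4 were lower: Serpinh1, the collagen chaperone HSP47 (-0.31), Plod2, a lysyl hydroxylase (-0.35), Crtap, a part of the prolyl 3-hydroxylase complex (-0.30), and Adamts3, a procollagen N-proteinase (-0.65). Of the basement membrane partners, 1 of 9 passed in female cortex, the fibronectin gene Fn1 (-0.80), and 2 rose and 4 fell of 9 in male cortex, 66.7% beside the same 47.6%. Among these Hspg2, the perlecan gene, fell by 1.52 and Fn1 by 1.12 on the log2 scale, Tnc had -0.38 and Agrn -0.27, and Nid2, which links laminin to collagen IV, and Smoc1 rose by 0.32 and 0.33. None of the 9 passed in either hypothalamus.

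Of the matrix receptors, the collagen-binding integrin chain Itga10 fell in female cortex (-0.77), 1 of 15, and 4 rose and 3 fell of 15 in male cortex, or 46.7%, a share near that of all genes. The rises were in Itga9 (1.02), Itgb5 (0.59), Itgb8 (0.59) and Itga6 (0.14), and the falls in Itga5, the fibronectin receptor chain (-1.36), Itga10 (-0.69) and Itga7 (-0.60). Of the proteases and inhibitors, Adamts1 alone passed in female cortex, 1 of 15, and it fell by 3.16. In male cortex 2 rose and 5 fell of 15, again 46.7%, with Adamts1 at -3.10, Adamts5 at -0.79, Timp1 at -0.74, Adamts4 at -0.44 and Mmp15 at -0.23, and with Timp4 at 1.28 and Adamts9 at 1.01. Adamts9 was the one called gene of the list in both hypothalamus tables, with a rise of 1.72 in female and 1.43 in male cultures, and the response of Adamts1 differed between regions in both sexes, by 3.11 in females (adjusted p = 0.0296) and 3.07 in males. Medians of the 4 lists lay between -0.27 and -0.01 in male cortex, beside 0.04 for all genes. Between regions 3 of the 9 partners were higher and 1 lower in female hypothalamus, 44.4% beside 28.8% of all genes, and 3 higher and 2 lower in male hypothalamus, 55.6% beside 48.3%. Among them Nid1, which like Nid2 links laminin and collagen IV, was higher in hypothalamus by 2.39 in females and 3.01 in males.

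Markers of other cell types moved with some of these results, and their part in them was not tested. The summed level of 10 mural cell markers was 48.0 to 53.6 RPM with dexamethasone in male cortex, against 73.5 to 86.4 RPM with vehicle, and 96.8 to 150 RPM in male hypothalamus vehicle cultures. Most of it in cortex was Notch3, which is also expressed in neural stem cells, at 44.9 and 71.1 RPM, and 7 of 10 markers in dexamethasone and 6 of 10 in vehicle cultures were under 1 RPM on average. Of the 10 endothelial markers 8 of 10 with dexamethasone and 5 of 10 with vehicle were under 1 RPM in male cortex. The 10 endothelial markers summed to 5.29 to 6.68 RPM with dexamethasone in male cortex, against 9.13 to 10.1 RPM with vehicle, and 15.7 to 33.8 RPM in male hypothalamus vehicle cultures, with Cdh5 and Cldn5 at or near 0. The 11 fibroblast and meningeal markers summed to 17.3 to 19.3 RPM with dexamethasone in male cortex, against 26.8 to 30.3 RPM with vehicle, with 2 genes, Prrx1 and Foxc1, above 1 RPM. Of these 3 lists, 2 of 4, 4 of 5 and 2 of 2 tested markers were lower with dexamethasone in male cortex. These shares stand beside 20.9% of all genes lower and 26.7% higher. Of the astrocyte markers 5 of 6 rose there, of the oligodendrocyte lineage markers 6 of 6, and of the neuron markers 1 of 5 tested, Map2. Of the 10 neural stem cell markers 5 rose and 3 fell. The 6 neuron markers summed to 832 to 973 RPM with dexamethasone, against 636 to 685 RPM with vehicle, most of it Map2, and the astrocyte markers to 273 to 374 RPM, against 205 to 247 RPM. The oligodendrocyte markers summed to 1572 to 1632 RPM with dexamethasone, against 1096 to 1203 RPM with vehicle. The 6 microglia markers summed to at most 1.04 RPM in any library.

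Between regions, some marker lists moved with the chains as well, and their part in the region differences was not tested. The 6 choroid plexus markers summed to 11.1 to 35.0 RPM in female hypothalamus vehicle cultures, against 0.341 to 8.93 RPM in female cortex, and to 4.96 to 24.1 RPM in male hypothalamus, against 1.29 to 5.46 RPM in male cortex, where the groups overlapped. Of these 6, Otx2 alone was tested and was higher in hypothalamus (2.91 in females and 1.78 in males), while Ttr, the defining transthyretin gene, averaged 0.0194 and 0.0541 RPM in female and male hypothalamus. The fibroblast and meningeal markers summed to 40.0 to 52.5 RPM in male hypothalamus, against 26.8 to 30.3 RPM in male cortex, with 2 of 2 tested markers higher, and to 31.02 to 92.6 RPM in female hypothalamus, against 28.3 to 38.6 RPM in female cortex, with 0 of 2 called. Of the mural markers 2 of 4 were higher (Acta2 and Tagln) and 1 lower (Notch3) in hypothalamus in each sex, and of the endothelial markers Flt1 was higher in each, 1 of 4 tested in females and 1 of 3 in males. Of 10 neural stem cell markers 3 were higher and 3 lower in male hypothalamus, and 0 and 1 in female. Of 6 oligodendrocyte lineage markers 1 was higher and 3 lower in males, and 0 passed in females. Of 5 astrocyte markers tested 0 passed in either sex. Of the neuron markers 1 of 4 was higher in females, and 1 of 5 higher and 1 lower in males. These counts stand beside 14.3% of all genes higher and 14.5% lower in females, and 23.5% and 24.9% in males.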

How the data were processed

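RNA was sequenced from 24 neurosphere cultures in 8 groups of 3, and the deposited tables hold 1 column per library with its 2 lanes together. Reads were aligned with TopHat2 (versions 2.0.13 and 2.0.9) to GRCm38 and counted with HTSeq, per the submitters' processing notes, from a stranded total RNA kit, per the labels' protocols. The annotation, the strand setting and the exact scaling are not given in the sources used here. The values are the authors' deposited normalized signal per gene, read here as RPM: all of them came out as whole reads, within 0.01 read. The authors' deposited fold ratios, log2 fold changes, p-values and adjusted p-values were only copied. Of 38924 entries, 38920 were kept. The 4 entries that share 2 names were left out, and 27 entries are named as dates.

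Each table was fitted with limma 3.58.1 (R 4.3.3, trend) on log2(RPM + 1), for genes that reached 1 RPM in 3 or more libraries, with Benjamini-Hochberg adjustment over all genes of that fit and a threshold of 0.05. Region and interaction fits used recovered reads scaled by TMM over the 24 libraries, since deposited values differ from that scale by 0.27 to 0.35 (log2) in cortex and by -0.34 to -0.28 in hypothalamus. Levels per kb used exon lengths of GENCODE M21. The alternatives were edgeR 4.0.16 (quasi-likelihood) on recovered reads, a pseudocount of 0.25, no filter, TMM with and without 4 rRNA-like genes, a replicate block and omission of libraries. Numbers were taken to pair the samples where every same-numbered correlation was over 0.1. This held in female cortex (0.49 to 0.87), female hypothalamus (0.61 to 0.75) and male hypothalamus (0.66 to 0.77), but not in male cortex (0.02 to 0.39). In female cortex, dexamethasone replicate 3 also had a correlation of 0.49 with another number. The fits were also run on simulated counts that held no replicate effects, so that run does not show how they behave on these libraries. Genes named are the chains called in a comparison, those below the limit that stood out in reads (chosen after their values were seen), and called genes of the lists. The members and all lists were chosen with earlier results of these data known. The values of 1 chain are not reported here.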

Additional observations from a re-analysis of the deposited data

Results flagged for a closer look

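In males 2 of 32 chains passed the limma interaction term for a difference between regions in the response to dexamethasone. This is 6.25% of them, beside 7.74% of all genes. Col11a2 had a difference of 1.24 and Col7a1 of 1.195 (male hypothalamus minus male cortex, log2), and both calls were kept in 12 of 12 omissions of 1 library. Both genes had reached the low-value limit through cortex alone and were under 1 RPM in every male hypothalamus library, where the log2(RPM + 1) scale leaves little room for a fall. In edgeR's quasi-likelihood test on the reads the differences were 1.51 and 1.75 (adjusted p = 0.0395 and 0.0291). The omissions and edgeR used the genes that had passed the same low-value limit, so neither tests the effect of that limit.

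In females the same term passed for 7 of 33 chains with the culture as a block, 21.2% of them, beside 15.5% of all genes. The differences (female hypothalamus minus female cortex, log2) were 1.03 for Col11a2, 0.73 for Col5a3 and 0.66 for Col20a1, and -0.64 for Col11a1, -0.61 for Col4a6, -0.46 for Col12a1 and -0.44 for Col4a5. Without the block 0 passed, beside 0.684% of all genes. By edgeR with the block 3 did, Col5a3, Col11a1 and Col4a5, a setting for which the share of all genes is not given here. Col11a2 and Col20a1 had reached the low-value limit through cortex alone.

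Col6a3 lay outside the tested genes of each table but had more reads with dexamethasone than with vehicle, with depth-adjusted ratios of 15.4 in female cortex, 37.7 in male cortex, 3.85 in female hypothalamus and 3.25 in male hypothalamus.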

How the results depend on the processing

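Counts of chains called are given here as they moved by more than 1.5 times. In female cortex, 2 chains were called, 0 with no filter on low values and 18 with the replicate block. The block gave 5 in place of 0 in female hypothalamus, beside 7.14% of all genes, and 8 in place of 0 in male hypothalamus, beside 13.1%. For the difference between regions it gave 7 in place of 0 in females, beside 15.5% of all genes. In males it gave 8 in place of 2, 25% of chains beside 24.7% of all genes, where replicate 2 of cortex fell short of the limit set for pairing. For these differences between regions, the block with a pseudocount of 0.25 gave 6 in females and 8 in males, and the block in edgeR 3 and 7, both settings being chosen after seeing the data. Shares of all genes under these settings are not given here, so these counts are not a result about the chains. The block gave 20 in place of 17 in male cortex, beside 52% of all genes, 0 for both differences between sexes, and 12 and 18 in place of 10 and 20 for the vehicle levels in females and males, beside 26.9% and 44.0%. Over omissions of replicates the counts ranged from 0 to 5 in female cortex, 14 to 17 in male cortex, 0 to 0 in both hypothalamus tables and both differences between sexes, 0 to 1 and 2 to 4 for the differences between regions in females and males (the 1 being Col6a3, lower, without female cortex dexamethasone replicate 1), and 6 to 18 and 13 to 19 for the vehicle levels in females and males. Over the same omissions the share of all genes called ranged from 0 to 12.3% in female cortex, 33.6% to 44.4% in male cortex, 14.1% to 40.4% and 35.6% to 53.9% for the vehicle levels in females and males, 0.28% to 0.743% and 4.23% to 9.75% for the differences between regions, and was at most 0.552% elsewhere. Among all genes, female cortex had 588 calls, 5068 with the block and 0 to 1634 over omissions; female hypothalamus 105 and 892, and male hypothalamus 28 and 1624, without and with the block. The cause of these shifts was not tested. For chains called in a comparison without a block, no value changed sign under the alternatives, and 541 values kept their side of the threshold and 93 lost it. Chains called only with the block are not in this count. As the values were chosen by their calls, the count says nothing about other chains. Reads per library limit what was detectable for chains under 1 RPM. Col6a3 had reached the low-value limit through dexamethasone libraries alone.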
